A study of Mus musculus with 4 samples.

Results

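The Rhox genes (reproductive homeobox on the X chromosome) encode homeodomain transcription factors that lie side by side in a cluster on the mouse X chromosome. They are best known from testis, ovary, epididymis and placenta. In the embryo proper the cluster is silenced, and DNA methylation is the best studied layer of that silencing. Rhox5, first described as Pem, is the founding gene of the family, and Rhox6 and Rhox9 were first described as the placental genes Psx1 and Psx2.

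The 6 genes described here are Rhox1, Rhox2a, Rhox4b, Rhox5, Rhox6 and Rhox9, out of 31 Rhox symbols and 20577 protein-coding genes in the authors' table. They were chosen by symbol from a list that had been selected on their FPKM in these libraries, the knockout lines against e14tg2a, so their levels and differences are given as a description. The authors sequenced RNA of mouse embryonic stem cells with 1 library for each of 4 lines, to study genes of mitochondrial fission. The Dnm1l-/- line lacks the dynamin-related GTPase that constricts mitochondria, and the Fis1-/- and Mff-/- lines each lack an outer membrane protein that acts in fission. The line e14tg2a, a male embryonic stem cell line in general use, was the control. All 4 lines are of strain 129/Ola, were at passages 30 to 35, and were grown on mouse embryonic fibroblasts (MEF) in serum with leukemia inhibitory factor. Each knockout is 1 line, and whether it is a single clone is not stated in the labels. With 1 library a line there was no replicate, no test was made, and a difference between lines cannot be told apart from a difference between clones, cultures or library preparations.

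Values are FPKM, fragments per kilobase of transcript scaled by the fragment total of the library, so levels of genes of different length can be set beside each other. The table gives no counts, and the depth was estimated from the spacing of low values at 35300000 to 37800000 fragments a library. The fragment numbers and intervals below follow from that estimate and cover counting error only. The deleted genes were lowest in their own lines (Dnm1l at 22.9 FPKM in Dnm1l-/- against 35.0 in e14tg2a, Fis1 at 56.2 FPKM in Fis1-/- against 103 in e14tg2a, and Mff at 11.8 FPKM in Mff-/- against 28.9 in e14tg2a). Pluripotency markers were high in all 4 libraries, with Pou5f1 at 913, 808 and 1753 FPKM in Dnm1l-/-, Fis1-/- and Mff-/- and 1208 FPKM in e14tg2a. The Y-linked gene Eif2s3y was at 0.136 FPKM in Dnm1l-/- and 0.0834 FPKM in Fis1-/-, but at 46.8 FPKM in Mff-/- and 33.0 FPKM in e14tg2a, so it was nearly missing in Dnm1l-/- and Fis1-/-. Ddx3y, another Y-linked gene, was at 0.0121 FPKM in Dnm1l-/-, 0.0178 FPKM in Fis1-/- and 4.17 FPKM in Mff-/-, against 3.59 FPKM in e14tg2a. Uty was listed at 0 in Dnm1l-/- and was at 0.00524 FPKM in Fis1-/- and 1.61 FPKM in Mff-/-, against 2.31 FPKM in e14tg2a. Kdm5d was near 0 in all 4 libraries, at 0.0102, 0.0150 and 0.0202 FPKM in the same lines, against 0.00477 FPKM in e14tg2a. So 3 of the 4 Y-linked genes listed were near 0 in Dnm1l-/- and Fis1-/- alone. The labels do not say whether these lines lost the Y chromosome or came from other cells. In every ratio of Dnm1l-/- or Fis1-/- to e14tg2a or to Mff-/- below, that difference between the lines cannot be told apart from the deleted gene.

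The homeobox of a Rhox gene codes for the helix that reads DNA. The stretches printed here show how alike the 6 genes are in that part, which bears on whether reads can be given to 1 gene. Each is 48 bases of coding sequence around the third helix (GENCODE M21, build GRCm38), and capitals mark the 18 bases that begin with the tryptophan and phenylalanine codons typical of that helix.
Rhox5: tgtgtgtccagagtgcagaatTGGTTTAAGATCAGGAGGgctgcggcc
Rhox6: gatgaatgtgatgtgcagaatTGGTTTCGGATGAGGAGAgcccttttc
Rhox9: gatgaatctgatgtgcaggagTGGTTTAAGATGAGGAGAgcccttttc
Rhox1: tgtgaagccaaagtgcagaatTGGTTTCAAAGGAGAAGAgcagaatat
Rhox2a: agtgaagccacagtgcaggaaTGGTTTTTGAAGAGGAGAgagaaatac
Rhox4b: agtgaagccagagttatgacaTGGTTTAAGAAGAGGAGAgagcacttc

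All 6 lie on the X chromosome, and each stretch is split by an intron in the genome. That of Rhox5 runs from 37806102 to 37808644 on the plus strand, that of Rhox6 from 37828443 to 37829653 on the plus strand, and that of Rhox9 from 37899270 to 37900297 on the minus strand. Rhox6 and Rhox9 were 89.6% identical over the 48 bases and 90.6% identical over the 681 bases of their coding sequences. All other pairs of the 6 genes were between 58.3% and 77.1% identical over the stretch, and between 63.8% and 72.2% over the coding sequence. Rhox2a and Rhox4b belong to subfamilies of tandem copies. The coding sequence of Rhox2a was 94.4% to 99.7% identical to its 7 copies, and that of Rhox4b 98.7% to 99.7% identical to its 6 copies.

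These likenesses set which of the levels rest on reads of a single gene. Of all 50-base stretches of the Rhox5 and Rhox1 transcripts searched (GENCODE M21), 0% also occurred in a transcript of another gene. For Rhox5 that transcript has 633 bases and the measured row 800, so part of the row was not searched. The share was 16.5% for Rhox6 and 19.1% for Rhox9, each shared with 1 other gene. It was 93.4% for Rhox2a and 89.9% for Rhox4b, so reads of those genes may have been divided among copies and their single values are uncertain. In e14tg2a the single rows of Rhox4b, Rhox4c and Rhox4f each held about 0.30 estimated fragments, a share of a read and not a whole one.

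Since the family is known for silencing by promoter methylation, the promoters are shown with each CpG, the dinucleotide that is methylated, in capitals. They come from RefSeq (build GRCm38.p6) and run from 250 bases before to 50 bases after the annotated start. The table held 4 of the 6 genes and 25 of the 31 Rhox symbols. The Rhox5 promoter is chrX:37754358-37754657 on the plus strand, Rhox1 is chrX:37222209-37222508 on the minus strand, Rhox2a is chrX:37244742-37245041 on the plus strand, and Rhox4b is chrX:37432244-37432543 on the plus strand.
Rhox5: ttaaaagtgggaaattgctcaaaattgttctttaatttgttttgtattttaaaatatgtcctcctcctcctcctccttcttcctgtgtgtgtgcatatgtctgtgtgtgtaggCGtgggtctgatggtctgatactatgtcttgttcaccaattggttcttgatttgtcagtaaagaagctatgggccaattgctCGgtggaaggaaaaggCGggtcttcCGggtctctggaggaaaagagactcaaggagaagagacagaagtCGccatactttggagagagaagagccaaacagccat
Rhox1: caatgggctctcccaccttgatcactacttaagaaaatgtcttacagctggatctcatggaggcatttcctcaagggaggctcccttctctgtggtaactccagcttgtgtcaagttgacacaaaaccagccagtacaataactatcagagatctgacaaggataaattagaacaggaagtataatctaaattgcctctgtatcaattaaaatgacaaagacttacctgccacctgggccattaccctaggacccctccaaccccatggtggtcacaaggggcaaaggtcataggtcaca
Rhox2a: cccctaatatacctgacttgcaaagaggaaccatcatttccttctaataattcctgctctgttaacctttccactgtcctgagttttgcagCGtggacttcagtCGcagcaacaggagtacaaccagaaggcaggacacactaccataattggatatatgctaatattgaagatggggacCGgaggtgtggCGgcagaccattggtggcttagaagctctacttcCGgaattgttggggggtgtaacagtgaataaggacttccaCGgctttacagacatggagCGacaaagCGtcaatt
Rhox4b: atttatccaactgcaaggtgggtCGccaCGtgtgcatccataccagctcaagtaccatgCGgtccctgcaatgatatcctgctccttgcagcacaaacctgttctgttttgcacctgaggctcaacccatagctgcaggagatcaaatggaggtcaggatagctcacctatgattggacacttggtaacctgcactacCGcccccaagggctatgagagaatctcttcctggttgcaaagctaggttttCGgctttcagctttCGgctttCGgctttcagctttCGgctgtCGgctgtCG

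The Rhox5 window held 5 CpG, Rhox1 held 0, Rhox2a held 8 and Rhox4b held 10, against a median of 7 over 32851 mouse promoters. A count of 0, as in Rhox1, was found in 5.43% of all promoters. In all, 3 motifs were searched on both strands. TTCCGG, the core of sites for ETS factors such as GABP, was in the Rhox5 and Rhox2a windows and in 14.9% of all promoters. CACGTG, the E-box bound by MAX dimers, was in the Rhox4b window and in 7.15% of all promoters. TCCCGC, an E2F-type motif, was in none of the 4 windows and in 6562 of the 32851 promoters. Rhox5 is known to use a distal and a proximal promoter in different tissues. The authors' table has 1 row for the gene, so the starts were not separated. The printed Rhox5 window covers only the annotated start at 37754608, and no window of another start is shown.

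Rhox5 was by far the most abundant gene of the family in every library. It was at 779 FPKM in Dnm1l-/-, 764 FPKM in Fis1-/- and 228 FPKM in Mff-/-, against 76.8 FPKM in e14tg2a. The 2 libraries Dnm1l-/- and Fis1-/- were level with each other, Mff-/- lay between them and the control, and all 3 knockout lines were above it. The values rested on 22003, 22058 and 6531 estimated fragments in Dnm1l-/-, Fis1-/- and Mff-/- and 2322 in e14tg2a, so counting error was small. The FPKM ratio to e14tg2a was 10.1 in Dnm1l-/- (95% counting interval 9.72 to 10.6), 9.95 in Fis1-/- (9.53 to 10.4) and 2.97 in Mff-/- (2.83 to 3.12). Between the knockout lines, the ratio of Dnm1l-/- to Fis1-/- was 1.02 (1.00 to 1.04), that of Dnm1l-/- to Mff-/- was 3.42 (3.32 to 3.51), and that of Fis1-/- to Mff-/- was 3.35 (3.26 to 3.44). The step from Mff-/- to the other knockout lines was thus somewhat larger than that between Mff-/- and e14tg2a. Among all 20577 coding genes ordered by FPKM, Rhox5 stood at place 115 in Dnm1l-/-, 112 in Fis1-/-, 399 in Mff-/- and 977 in e14tg2a. It held 90.1%, 92.4% and 94.6% of the FPKM of all Rhox rows in Dnm1l-/-, Fis1-/- and Mff-/-, and 87.6% in e14tg2a.

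**Figure D1:**
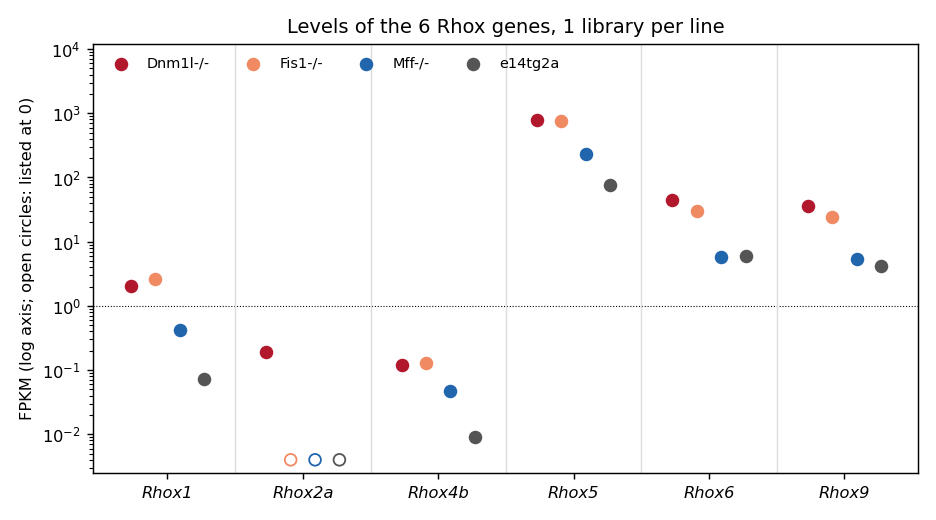
FPKM of the 6 Rhox genes on a log axis, with 1 point for each library in the order Dnm1l-/-, Fis1-/-, Mff-/- and e14tg2a, and open circles at the foot for values listed at 0. The dotted line is 1 FPKM. Rhox5 sits at 779 and 764 FPKM in Dnm1l-/- and Fis1-/-, against 76.8 FPKM in e14tg2a, while Rhox6 in Mff-/- (5.76 FPKM) is level with e14tg2a (6.02 FPKM).

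Rhox6 and Rhox9, the near-identical pair known from the placenta, followed Rhox5 in Dnm1l-/- and Fis1-/- but not in Mff-/-. Rhox6 was at 43.8 FPKM in Dnm1l-/-, 30.1 FPKM in Fis1-/- and 5.76 FPKM in Mff-/-, against 6.02 FPKM in e14tg2a. Rhox9 was at 36.0 FPKM in Dnm1l-/-, 24.5 FPKM in Fis1-/- and 5.33 FPKM in Mff-/-, against 4.23 FPKM in e14tg2a. Both genes were thus high in Dnm1l-/- and Fis1-/- and near the control in Mff-/-. For Rhox6 the FPKM ratio to e14tg2a was 7.28 in Dnm1l-/- (6.26 to 8.49), 4.99 in Fis1-/- (4.28 to 5.85) and 0.958 in Mff-/- (0.779 to 1.18). For Rhox9 it was 8.51 in Dnm1l-/- (7.14 to 10.2), 5.78 in Fis1-/- (4.83 to 6.97) and 1.26 in Mff-/- (1.00 to 1.59). In Mff-/- both intervals hold a ratio of 1, so no difference from e14tg2a was detectable beyond counting error at this depth.

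The pair also differed from Rhox5 in how Dnm1l-/- compared with Fis1-/-. The ratio of Dnm1l-/- to Fis1-/- was 1.46 for Rhox6 (1.34 to 1.59) and 1.47 for Rhox9 (1.34 to 1.61), and the interval of 1.00 to 1.04 for Rhox5 lies below both. Rhox6 was 1.22, 1.23 and 1.08 times the level of Rhox9 in Dnm1l-/-, Fis1-/- and Mff-/-, and 1.42 times in e14tg2a. The ratio of Rhox5 to Rhox6 was 17.8 in Dnm1l-/-, 25.4 in Fis1-/- and 39.6 in Mff-/-, against 12.8 in e14tg2a. The genes of the cluster thus did not change by 1 common factor, and Mff-/- had the most Rhox5 for its Rhox6. Part of the sequence of Rhox6 and Rhox9 is shared, so the division of reads between them is less certain than their joint level.

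Rhox1 lies at the other end of the cluster and was low. It was at 2.06 FPKM in Dnm1l-/-, 2.66 FPKM in Fis1-/- and 0.424 FPKM in Mff-/-, against 0.0729 FPKM in e14tg2a. Here Fis1-/- was the highest library and e14tg2a the lowest, with 64.0, 84.7 and 13.4 estimated fragments in Dnm1l-/-, Fis1-/- and Mff-/- and 2.43 in e14tg2a. With so few fragments in e14tg2a the FPKM ratios to it are loose, 28.2 in Dnm1l-/- (9.11 to 289), 36.5 in Fis1-/- (11.9 to 373) and 5.82 in Mff-/- (1.55 to 62.6). The ratio to Mff-/- was 4.85 in Dnm1l-/- (2.72 to 9.88) and 6.27 in Fis1-/- (3.6 to 12.7). Between Dnm1l-/- and Fis1-/- the ratio was 0.773 (0.548 to 1.08), an interval that holds 1.

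Rhox2a and Rhox4b were below 1 FPKM in every library. Rhox2a was at 0.188 FPKM in Dnm1l-/-, from 5.21 estimated fragments, and was listed at 0 in Fis1-/-, Mff-/- and e14tg2a. Rhox4b was at 0.119 FPKM in Dnm1l-/-, 0.131 FPKM in Fis1-/- and 0.0465 FPKM in Mff-/-, against 0.00906 FPKM in e14tg2a. No library held more than 4.19 estimated fragments of Rhox4b, and no fold is given for either gene.

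Summed over its copies, Rhox4 had more fragments in each knockout line than in e14tg2a, and Rhox2 had more in Dnm1l-/- and Fis1-/-. The 8 Rhox2 rows summed to 13.8, 7.53 and 1.26 estimated fragments in Dnm1l-/-, Fis1-/- and Mff-/-, and to 0 in e14tg2a, where 3 fragments is the limit that a count of 0 allows, so for Rhox2 in Mff-/- no difference was detectable. The 8 Rhox4 rows summed to 20.3, 35.5 and 11.3 estimated fragments in Dnm1l-/-, Fis1-/- and Mff-/-, and to 2.70 in e14tg2a. In FPKM the Rhox4 sum was 0.618, 1.06 and 0.343 in Dnm1l-/-, Fis1-/- and Mff-/-, against 0.0766 in e14tg2a. The FPKM ratio of that sum to e14tg2a was 8.08 in Dnm1l-/- (2.12 to 37.5), 13.8 in Fis1-/- (3.85 to 62.1) and 4.49 in Mff-/- (1.02 to 21.6). Dnm1l-/- was the highest library for Rhox2 and Fis1-/- for Rhox4.

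On the scale used for all genes, log2(FPKM + 1), Rhox5 differed from e14tg2a by 3.33 in Dnm1l-/-, 3.30 in Fis1-/- and 1.56 in Mff-/-. Rhox9 differed by 2.82, 2.28 and 0.27, and Rhox6 by 2.67, 2.15 and -0.05, in Dnm1l-/-, Fis1-/- and Mff-/-. Rhox1 differed by 1.51, 1.77 and 0.41 in the same lines. The scale understates differences of low genes such as Rhox1. A gene was compared where its 4 values averaged 1 FPKM or more, and 4 of the 6 Rhox genes met that limit. Rhox1 met it only through Dnm1l-/- and Fis1-/-, in which it was high.

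In Dnm1l-/- those 4 all exceeded e14tg2a by 2-fold or more on this scale, where 2.51% of the 10687 compared genes were 2-fold higher and 2.1% were 2-fold lower. The same 4 were at least 2-fold higher in Fis1-/-, where 1.8% of the compared genes were higher and 1.89% lower. In Mff-/- only Rhox5 of the 4 was, where 2.61% of the compared genes were higher and 2.89% lower. The members had been picked with these contrasts known, so nothing is read from their counts. Their median difference was 2.75 in Dnm1l-/-, 2.21 in Fis1-/- and 0.34 in Mff-/-, beside 0.01, 0.01 and -0.07 over all compared genes. Ordered from the highest difference, Rhox5 stood at place 6 of 10687 in Dnm1l-/-, 3 in Fis1-/- and 45 in Mff-/-. All 3 comparisons share the e14tg2a library.

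The knockout lines can be set against each other without that library. Dnm1l-/- and Fis1-/- also differ from Mff-/- in the Y-linked genes, so contrasts with Mff-/- carry that difference too. In Dnm1l-/- all 4 exceeded Mff-/- by 2-fold or more, where 6.81% of the compared genes were higher and 5.55% lower. In Fis1-/- all 4 likewise exceeded Mff-/- by 2-fold or more, where 6.89% were higher and 5.99% lower. Between Dnm1l-/- and Fis1-/-, 0 of the 4 reached 2-fold in either direction, where 0.215% of the compared genes were higher and 0.122% lower. These contrasts use values that had also chosen the genes, and nothing is read from the counts.

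The other 25 Rhox symbols add little RNA. Of them, 8 were listed at 0 in all 4 libraries, namely all 6 Rhox3 symbols, Rhox11 and Rhox12. Only Rhox7 and Rhox13 reached 1 FPKM in any library. Rhox7 was at 1.83 FPKM in Dnm1l-/-, 3.78 FPKM in Fis1-/- and 0.101 FPKM in Mff-/-, against 0.0955 FPKM in e14tg2a. On the log2(FPKM + 1) scale it differed from e14tg2a by 1.37, 2.13 and 0.01 in the same lines. It was thus past 2-fold in Dnm1l-/- and Fis1-/-, and met the limit to be compared only through those libraries. Mff-/- and e14tg2a each held about 3.55 estimated fragments, so their ratio of 1.06 (0.197 to 5.67) leaves a wide range. Fis1-/- was above Dnm1l-/-, with a Dnm1l-/- to Fis1-/- ratio of 0.484 (0.351 to 0.653). Of its 50-base stretches 58.8% also occurred in other genes. Rhox13 was at 1.04 FPKM in Dnm1l-/-, 0.693 FPKM in Fis1-/- and 0.351 FPKM in Mff-/-, against 0.119 FPKM in e14tg2a. None of the stretches searched for Rhox13 was shared, though they covered 876 bases and its measured row has 1254. Its ratio to e14tg2a was 8.75 in Dnm1l-/- (3.50 to 23.5), 5.85 in Fis1-/- (2.22 to 15.9) and 2.96 in Mff-/- (1.05 to 8.79).

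Rhox8 and Rhox10 were not highest in Dnm1l-/- or Fis1-/-, and were chosen after their values were seen. Rhox8, known from Sertoli and granulosa cells, was at 0.109 FPKM in Dnm1l-/-, 0.0531 FPKM in Fis1-/- and 0.549 FPKM in Mff-/-, against 0.137 FPKM in e14tg2a. Its ratio to e14tg2a was 4.02 in Mff-/- (1.68 to 12.6), while the intervals in Dnm1l-/- (0.795, 0.215 to 3.51) and Fis1-/- (0.389, 0.0345 to 1.95) hold 1. Of its 50-base stretches 9.87% also occurred in 108 other genes. Rhox10, known from germ cells, was listed at 0 in Dnm1l-/- and Fis1-/- and was at 0.187 FPKM in Mff-/-, against 0.133 FPKM in e14tg2a. These were 5.09 estimated fragments in Mff-/- and 3.82 in e14tg2a, a ratio of 1.41 (0.284 to 6.65), so no difference of Rhox10 was detectable at this depth.

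The Rhox rows span 916 kb of the X chromosome, from 37213805 to 38129966. On the log2(FPKM + 1) scale, which holds down differences of low genes, the large differences were those of the better expressed genes. Rhox5, Rhox6 and Rhox9 lie close together, Rhox1 is at the end with the lowest coordinates, and the tandem copies of Rhox2, Rhox3 and Rhox4 between Rhox1 and Rhox5 were each below 1 FPKM in every library. As FPKM ratios to e14tg2a, the intervals of Rhox13 and of the Rhox4 sum hold the ratio of Rhox5 in Dnm1l-/- and Fis1-/-, and the interval of Rhox1 lies above that of Rhox5 in Fis1-/-. Within 1 Mb on either side of the outermost Rhox rows, 17 other genes were compared.

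Of those 17 neighbours, 1 was at least 2-fold higher in Dnm1l-/-, 1 in Fis1-/- and 1 in Mff-/-, and the last comparison also had 1 at least 2-fold lower. Each such gene is 5.88% of the 17. Over all compared genes 2.51%, 1.8% and 2.61% were higher in Dnm1l-/-, Fis1-/- and Mff-/-, and 2.89% lower in Mff-/-. With so few neighbours nothing is read from these counts. The median difference of the neighbours was 0.18 in Dnm1l-/-, 0.23 in Fis1-/- and 0.13 in Mff-/-, beside 0.01, 0.01 and -0.07 over all compared genes. Pgrmc1, which encodes a heme-binding membrane protein, was at 105 FPKM in Dnm1l-/-, 112 FPKM in Fis1-/- and 45.8 FPKM in Mff-/-, against 40.0 FPKM in e14tg2a. It lies farthest from the cluster of the neighbours on its side. Ube2a, a ubiquitin-conjugating enzyme gene, was at 56.0 FPKM in Mff-/- against 27.5 FPKM in e14tg2a. Its log2 difference of 1.00 lay on the 2-fold limit. Lamp2, a lysosomal membrane protein gene, was at 8.69 FPKM in Mff-/- against 19.9 FPKM in e14tg2a. The nearest neighbours did not reach 2-fold. On the side of Rhox1, the RING finger gene Rnf113a1 was at 6.54 FPKM in Dnm1l-/-, 7.62 FPKM in Fis1-/- and 7.21 FPKM in Mff-/-, against 4.19 FPKM in e14tg2a. On the other side, Zbtb33, which encodes the methyl-CpG-binding protein Kaiso, was at 1.90 FPKM in Dnm1l-/-, 2.28 FPKM in Fis1-/- and 0.774 FPKM in Mff-/-, against 1.82 FPKM in e14tg2a.

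**Figure D2:**
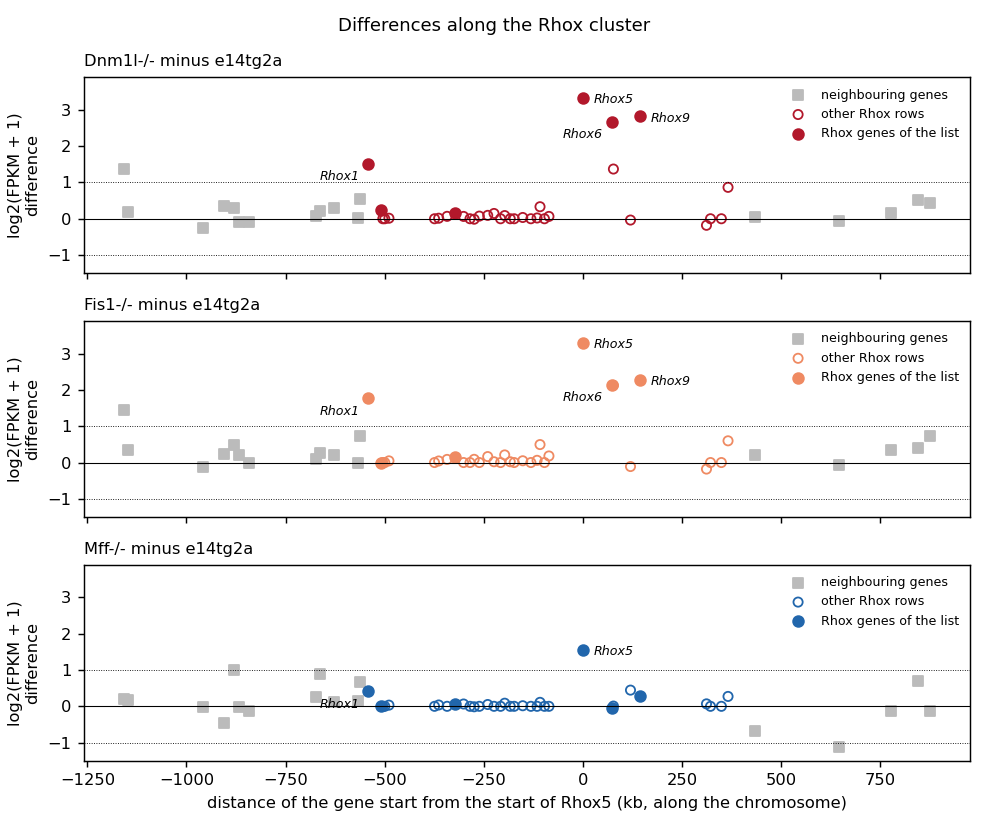
Difference from e14tg2a on the log2(FPKM + 1) scale in Dnm1l-/-, Fis1-/- and Mff-/- (top to bottom), against the distance of each gene's start from that of Rhox5 in kb. Filled circles are the 6 Rhox genes, open circles the other Rhox rows, and grey squares the 17 neighbours, with dotted lines at 2-fold. Rhox5, Rhox6, Rhox9 and Rhox1, and Rhox7 among the open circles, lie above the upper line in Dnm1l-/- and Fis1-/-. In Mff-/- Rhox5 alone of the Rhox genes does.

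Over the X chromosome outside the family, 338 genes were compared. Of these, 19 were at least 2-fold higher and 5 lower in Dnm1l-/-, 20 higher and 4 lower in Fis1-/-, and 8 higher and 14 lower in Mff-/-. That is 5.62%, 5.92% and 2.37% higher and 1.48%, 1.18% and 4.14% lower in Dnm1l-/-, Fis1-/- and Mff-/-. Over all compared genes the shares were 2.51%, 1.8% and 2.61% higher and 2.1%, 1.89% and 2.89% lower. The median differences of the X-linked genes were 0.11, 0.15 and -0.10, beside 0.01, 0.01 and -0.07 over all compared genes. Rhox5 had a larger difference than every one of the 338 in Dnm1l-/- and Fis1-/-, and stood at place 2 in Mff-/- when ranked with them.

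**Figure D3:**
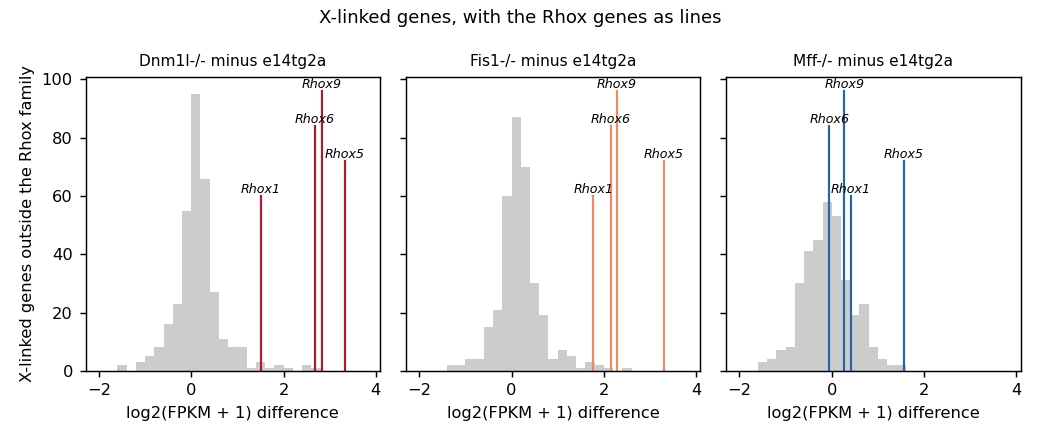
Number of X-linked genes outside the Rhox family (338 in all, grey bars) by their difference from e14tg2a on the log2(FPKM + 1) scale, with a line for each compared Rhox gene, in Dnm1l-/-, Fis1-/- and Mff-/-. Line heights only separate the names. In Mff-/- the lines of Rhox1, Rhox6 and Rhox9 (0.41, -0.05 and 0.27) fall within the bulk of the bars, and that of Rhox5 (1.56) at their upper edge.

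Genes that write or read the marks known to silence the cluster were looked at next, from a list of 27. On the log2(FPKM + 1) scale 0 of these were at least 2-fold higher in any line. The de novo DNA methyltransferase gene Dnmt3a was the 1 at least 2-fold lower, in Dnm1l-/- and Fis1-/-. Over all compared genes 2.51%, 1.8% and 2.61% were higher and 2.1%, 1.89% and 2.89% lower in Dnm1l-/-, Fis1-/- and Mff-/-. Nothing is read from the counts. Dnmt3a was at 2.29 FPKM in Dnm1l-/-, 2.79 FPKM in Fis1-/- and 7.43 FPKM in Mff-/-, against 7.74 FPKM in e14tg2a. It was low in Dnm1l-/- and Fis1-/-, and close to e14tg2a in Mff-/-. Dnmt3b, the other de novo enzyme, was at 17.5 FPKM in Dnm1l-/-, 20.3 FPKM in Fis1-/- and 62.5 FPKM in Mff-/-, against 31.0 FPKM in e14tg2a. The FPKM ratio in Mff-/- was 2.01, and the pseudocount put it just below the 2-fold limit, at 0.99. Dnmt3l, their cofactor, was at 100.3 FPKM in Dnm1l-/-, 125 FPKM in Fis1-/- and 136 FPKM in Mff-/-, against 155 FPKM in e14tg2a.

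The maintenance methyltransferase gene Dnmt1 was at 51.4 FPKM in Dnm1l-/-, 54.3 FPKM in Fis1-/- and 39.2 FPKM in Mff-/-, against 55.6 FPKM in e14tg2a. Its partner Uhrf1 lay between 119 and 125 FPKM in the knockout lines, against 106 FPKM in e14tg2a. Ehmt2, the histone H3 lysine methyltransferase G9a, was at 25.3 FPKM in Dnm1l-/-, 25.7 FPKM in Fis1-/- and 51.4 FPKM in Mff-/-, against 38.2 FPKM in e14tg2a. The medians of the 27 were 0.02, 0.06 and -0.07 in Dnm1l-/-, Fis1-/- and Mff-/-, close to those of all compared genes. Of 8 compared genes of TET and demethylation factors, 0 reached 2-fold in any line. Of 4 linker histone genes, 1 was at least 2-fold lower in Dnm1l-/- and 0 in the other lines. That gene was H1fx, at 9.77 FPKM in Dnm1l-/- against 21.5 FPKM in e14tg2a. Over all compared genes 2.1% were lower in Dnm1l-/-, and nothing is read from these counts. Methylation of the cluster was not measured, and the part of these genes in the Rhox levels was not tested.

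Other germline genes known to be kept silent by DNA methylation were set beside the Rhox genes. Of 18 compared out of 34, 6 were at least 2-fold higher and 1 lower in Dnm1l-/-, 7 higher and 1 lower in Fis1-/-, and 2 higher and 1 lower in Mff-/-. Over all compared genes 2.51%, 1.8% and 2.61% were higher in Dnm1l-/-, Fis1-/- and Mff-/-. Some of the 18, such as Sohlh2, met the limit of 1 FPKM only through libraries in which they were high, so nothing is read from these counts. Sohlh2, a helix-loop-helix gene of early germ cells, was at 10.4 FPKM in Dnm1l-/-, 7.95 FPKM in Fis1-/- and 0.433 FPKM in Mff-/-, against 0.713 FPKM in e14tg2a. Fmr1nb, a testis gene on the X chromosome, was at 39.4 FPKM in Dnm1l-/-, 36.5 FPKM in Fis1-/- and 1.49 FPKM in Mff-/-, against 5.28 FPKM in e14tg2a. Both were highest in Dnm1l-/- and lowest in Mff-/-. Tuba3a, a testis tubulin gene, was at 22.6 FPKM in Dnm1l-/-, 13.7 FPKM in Fis1-/- and 7.0 FPKM in Mff-/-, against 3.0 FPKM in e14tg2a. Stra8, the gene of meiotic entry, went the other way, at 0.362 FPKM in Dnm1l-/-, 0.146 FPKM in Fis1-/- and 4.39 FPKM in Mff-/-, against 3.03 FPKM in e14tg2a. The list was chosen with earlier results of these libraries known and is no independent evidence of direction.

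**Figure D4:**
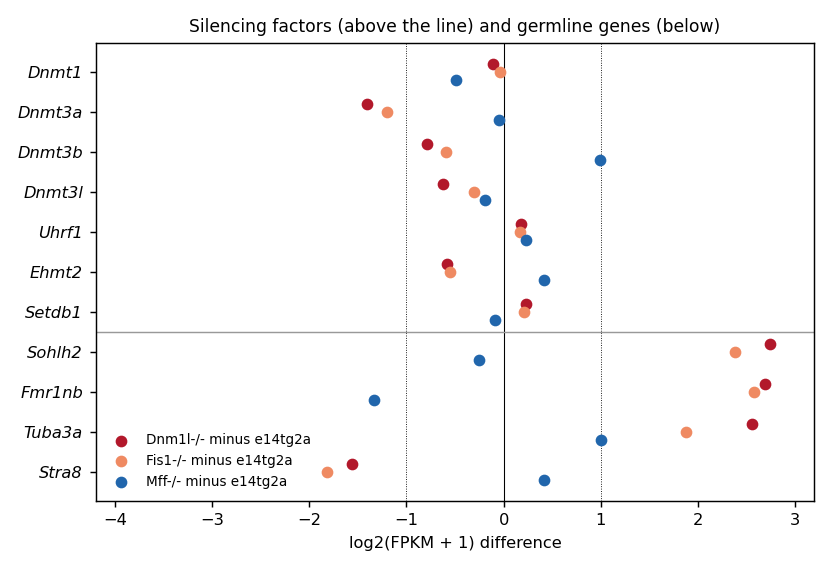
Difference from e14tg2a on the log2(FPKM + 1) scale of 7 silencing factors and 4 germline genes, with 1 point each for Dnm1l-/-, Fis1-/- and Mff-/- and dotted lines at 2-fold. Dnmt3a is past the lower line in Dnm1l-/- and Fis1-/- and near 0 in Mff-/-, Sohlh2, Fmr1nb and Tuba3a are past the upper line in Dnm1l-/- and Fis1-/-, and Stra8 is past the lower line in both.

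Rhox genes are also used by other cell types, and in bulk RNA more cells of a type and more RNA per cell cannot be told apart. Of 20 trophoblast genes 10 were compared. At least 2-fold higher were 6 of them in Dnm1l-/-, 2 in Fis1-/- and 0 in Mff-/-, with 0 lower in each. Over all compared genes 2.51%, 1.8% and 2.61% were higher in Dnm1l-/-, Fis1-/- and Mff-/-. This list was chosen with earlier results of these libraries known, so nothing is read from its counts. Krt8, a keratin gene of trophectoderm and other epithelia, was at 39.9 FPKM in Dnm1l-/-, 12.9 FPKM in Fis1-/- and 11.3 FPKM in Mff-/-, against 9.73 FPKM in e14tg2a. Peg10, an imprinted gene needed in placenta, was at 138 FPKM in Dnm1l-/-, 119 FPKM in Fis1-/- and 54.3 FPKM in Mff-/-, against 45.5 FPKM in e14tg2a. Peg10 was past 2-fold in both Dnm1l-/- and Fis1-/-, and Krt8 in Dnm1l-/-. The summed level of the 20 genes was 282, 208 and 126 FPKM in Dnm1l-/-, Fis1-/- and Mff-/-, and 112 FPKM in e14tg2a. Peg10 alone held 138 FPKM of that sum in Dnm1l-/- and 45.5 FPKM in e14tg2a. Tpbpa, which marks the spongiotrophoblast, was listed at 0 in all 4 libraries. Cdx2 was at 0.0828 FPKM in Dnm1l-/-, 0 in Fis1-/- and 0.764 FPKM in Mff-/-, against 0.116 FPKM in e14tg2a. In the same order of lines, Eomes was at 3.68, 3.66 and 1.66 FPKM, against 1.83 FPKM. Gata3 was at 1.03, 0.524 and 0.432 FPKM, against 0.233 FPKM, and Hand1 at 1.04, 1.14 and 1.75 FPKM, against 0.679 FPKM. Tead4 was at 12.8, 6.70 and 2.82 FPKM, against 3.67 FPKM. Elf5 was at 0, 0 and 0.207 FPKM, against 0.0522 FPKM, and Prl3d1 was above 0 only in Fis1-/-, at 0.0383 FPKM. The part of trophoblast-like cells in the Rhox levels was not tested.

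All of the 12 primordial germ cell genes were compared. At least 2-fold, 3 were higher and 1 lower in Dnm1l-/-, 2 higher and 1 lower in Fis1-/-, and 1 higher and 0 lower in Mff-/-. Over all compared genes 2.51%, 1.8% and 2.61% were higher and 2.1%, 1.89% and 2.89% lower in the same lines. This list too was chosen with earlier results known, and nothing is read from its counts. Prdm1, the regulator known to specify these cells, was at 4.44 FPKM in Dnm1l-/-, 3.98 FPKM in Fis1-/- and 0.700 FPKM in Mff-/-, against 1.11 FPKM in e14tg2a. Dppa3, also called Stella, went the other way, at 8.20 FPKM in Dnm1l-/-, 5.35 FPKM in Fis1-/- and 64.3 FPKM in Mff-/-, against 26.2 FPKM in e14tg2a. The list summed to 3649, 3238 and 6357 FPKM in Dnm1l-/-, Fis1-/- and Mff-/-, and to 3737 FPKM in e14tg2a. Most of each sum came from genes of the list other than Prdm1 and Dppa3. The germ cell marker Ddx4 was at 6.42 FPKM in Dnm1l-/-, 6.67 FPKM in Fis1-/- and 3.72 FPKM in Mff-/-, against 4.01 FPKM in e14tg2a. In the same order Dazl was at 3.77, 3.84 and 0.363 FPKM, against 1.10 FPKM. Nanos3 was at 3.27, 3.28 and 2.99 FPKM, against 4.72 FPKM, and so was lower in each knockout line. The part of germ cells in the Rhox levels was not tested.

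Of 12 Sertoli and granulosa markers, cells in which several Rhox genes act, only the inhibin subunit gene Inhbb was compared, at 8.54 FPKM in Dnm1l-/-, 3.75 FPKM in Fis1-/- and 5.84 FPKM in Mff-/-, against 2.40 FPKM in e14tg2a. Fshr, the receptor that defines these cells, was listed at 0 in all 4 libraries. Amh was at 0.384 FPKM in Dnm1l-/-, 0.590 FPKM in Fis1-/- and 0.326 FPKM in Mff-/-, against 0.684 FPKM in e14tg2a. In the same order Inha was at 0.508, 0.331 and 0.293 FPKM, against 0.694 FPKM in e14tg2a. Amh and Inha were thus lower in each knockout line, where Inhbb was higher. Foxl2 was at 0.0347, 0.0340 and 0.0115 FPKM, against 0.0325 FPKM in e14tg2a. The 16 fibroblast markers, for the feeder cells, summed to 103, 132 and 174 FPKM in Dnm1l-/-, Fis1-/- and Mff-/-. In e14tg2a they summed to 183 FPKM. Most of each sum came from genes of the list other than Col1a1, Col1a2 and Thy1, so it says little about these genes. Of those markers 5 were compared, and their median difference was -0.26 in Dnm1l-/-, -0.16 in Fis1-/- and 0.68 in Mff-/-, where 4 of the 5 were higher. Thy1 was at 11.9 FPKM in Mff-/- against 4.10 FPKM in e14tg2a, and alone reached 2-fold on the log2(FPKM + 1) scale. Col1a1 was at 3.27 FPKM in Mff-/- against 1.5 FPKM in e14tg2a, and Col1a2 at 2.97 FPKM in Mff-/- against 1.48 FPKM in e14tg2a, which are FPKM ratios of 2.18 and 2.01. Dcn, Postn, Col3a1 and Lum were below the limit to be compared. Dcn was at 0.763 FPKM in Dnm1l-/-, 1.14 FPKM in Fis1-/- and 0.983 FPKM in Mff-/-, against 0.610 FPKM in e14tg2a. In the same order Postn was at 0.326, 0.472 and 0.534 FPKM, against 0.342 FPKM. Col3a1 was at 0.302, 0.359 and 0.432 FPKM, against 0.357 FPKM. Lum was at 0.0429, 0.0420 and 0.0425 FPKM, against 0.0268 FPKM. Dcn and Lum were thus higher in each knockout line. The part of feeder cells in the Rhox levels was not tested. Of 12 pluripotency genes, 1 was at least 2-fold higher in Dnm1l-/-, 1 in Fis1-/- and 2 in Mff-/-, with 0 lower in each. The shares over all compared genes were 2.51%, 1.8% and 2.61% higher, and nothing is read from these counts. Tfcp2l1, a factor of the naive state, was the 1 that was higher in Dnm1l-/- and Fis1-/-, at 114 FPKM in Dnm1l-/-, 88.8 FPKM in Fis1-/- and 23.5 FPKM in Mff-/-, against 35.4 FPKM in e14tg2a.

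Outside the family, the genes whose 3 differences lay nearest to the median of the 4 compared Rhox genes were Krt42, Serpinb6c, Gprc5b, Pqlc1 and Htra1, by Euclidean distance on the log2 scale over the 3 comparisons. Krt42, a type I keratin gene, was nearest at a distance of 0.20, with 144 FPKM in Dnm1l-/-, 95.6 FPKM in Fis1-/- and 28.7 FPKM in Mff-/-, against 19.6 FPKM in e14tg2a. Serpinb6c, a serine protease inhibitor gene, followed at 0.38, with 72.6 FPKM in Dnm1l-/-, 47.8 FPKM in Fis1-/- and 9.03 FPKM in Mff-/-, against 8.20 FPKM in e14tg2a. The other 3 lay at 0.56 to 0.59, and none of the 5 is on the X chromosome.

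The total FPKM of Mff-/- was 707746, above the 597921 to 623303 of the other libraries, which bears on its small differences. Scaling the libraries to 1 total lowered the median of all compared genes in Mff-/- by 0.13 to 0.16 on the log2 scale, while Dnm1l-/- and Fis1-/- moved by 0.01 to 0.05. The deposited values gave 279 genes at least 2-fold higher and 309 lower in Mff-/-, and scaling to the mean total gave 153 higher and 520 lower. Under these scalings Rhox5 in Mff-/- kept a difference of at least 1.38. Rhox6 in Mff-/- ranged from -0.22 to 0.01 over all alternatives and so has no settled sign. In Mff-/- the counting intervals of the Rhox4 sum (1.02 to 21.6) and of Rhox13 (1.05 to 8.79) lay barely above 1. They were not recomputed under these scalings, so whether they leave out 1 is not settled.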

How the data were processed

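Polyadenylated RNA of 4 lines was sequenced, and the authors deposited 1 table of FPKM values per RefSeq transcript with transcript lengths, per the file headers (33818 transcripts, 1 column a library). Per the submitters' processing notes, reads were processed with tools that include StringTie 1.3.3b and STAR 2.5.2b, with build mm10, in roles that are not spelled out. StringTie divides fragments among overlapping or near-identical transcripts, and FPKM does not sum to a common total. Use of strand in the quantification is not stated.

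FPKM was summed per symbol, 10687 of 20577 coding genes with a mean of at least 1 FPKM were compared, and differences (knockout minus e14tg2a) were taken on the log2(FPKM + 1) scale with Python 3.11.15, pandas 2.3.3 and scipy 1.17.1, tested on simulated data. With 1 library a group there was no test. Genes were counted at 2-fold. Depth came from low values of transcripts of at least 3000 bases, of which 89.6% to 92.2% lay within 0.15 of a whole fragment. Ratio intervals are exact binomial ones at 95%. Named were all 6 genes, other Rhox genes reaching 1 FPKM, up to 4 genes a list by largest difference past 2-fold, and neighbours past 2-fold. Also named were the 5 genes nearest in pattern, the targets, markers of cell types, and any silencing or Y-linked gene. The genes and lists were chosen with earlier results of these data known.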

Additional observations from a re-analysis of the deposited data

How the results depend on the processing

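The number of the 4 compared Rhox genes at least 2-fold higher was 4 in Fis1-/- under every alternative run, and 4 in Dnm1l-/- except 3 when 3-fold was asked, where Rhox1 fell out. In Mff-/- it was 1, but 2 with a pseudocount of 0.1 and 0 when 3-fold was asked. For all compared genes, asking 3-fold gave 107 higher in Dnm1l-/- (268 at 2-fold), 65 in Fis1-/- (192) and 41 in Mff-/- (279). A pseudocount of 0.1 gave 307 in Fis1-/-. In Mff-/- the count was 153 with libraries scaled to the mean total and 160 with the 1% most abundant genes left out of that total. In the split of Mff-/- calls, 47.4% were higher as deposited, 22.7% scaled to the mean total, 21.4% as TPM, 24.7% without the 1% most abundant genes and 59.7% when centred on the median. Of 72 alternative values of the Rhox differences, 51 lay within 0.1 log2 units of the deposited one and 21 did not, and Rhox6 in Mff-/- crossed 0. Rhox1 ranged from 1.5 to 3.64 in Dnm1l-/-, the pseudocount of 0.1 giving the highest value. No paired analysis was possible because each line has 1 library and the labels give no replicate numbers. Depth limits Rhox2a, Rhox4b and, in e14tg2a, Rhox1, which rest on a few fragments.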
